A study of Homo sapiens with 54 samples.

Results

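PEO4 and PEO1 are established cell lines derived from one patient with high-grade serous ovarian cancer, the most common and most lethal form of the disease, and the labels call PEO4 platinum resistant and PEO1 platinum sensitive. The 6 libraries described here are the 3 of untreated PEO4 and the 3 of untreated PEO1, out of 54 libraries in the whole series, and they were chosen by their labels alone. PEO4 libraries after 8 h in 80 µM carboplatin were set beside PEO1 libraries after the same treatment, with 2 libraries of each line, since the third library of each listed fewer than 12000 genes. The dose is that of the treatment protocol, whereas the series text gives 80 mM. All cultures grew in RPMI medium with fetal bovine serum, and total RNA was sequenced from a stranded library kit. The untreated cultures are labelled 0 h and carry no drug, whereas the series text speaks of a vehicle control harvested at 24 h. Each line is a single cell line, so a difference between them is a difference between these lines and not between resistance and sensitivity in general. The labels also number the cultures 6, 7 and 8 in PEO4 and 9, 10 and 11 in PEO1, without saying what the number means, and whatever it stands for cannot be told apart from the line. Per the series text the experiment was repeated on 3 days.

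Carboplatin kills cells by attaching platinum to DNA and crosslinking its strands, and resistance is commonly discussed in terms of DNA repair, drug uptake and export, detoxification and the threshold for cell death. Serous ovarian cancers are thought to arise from the Müllerian epithelium of the fallopian tube and carry its lineage factors, such as PAX8 and WT1. Interferon-stimulated genes are a set of antiviral genes switched on when a complex that holds STAT2 and IRF9 binds a short promoter element, and some tumour lines keep them on without infection.

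The values are gene-level TPM, a scale that gives each gene's share of the RNA per length and keeps no sequencing depth, so depth is unknown and no counting interval can be given. The libraries listed 13799 to 15467 genes above 0 in PEO4 and 14084 to 15911 in PEO1. Correlations across genes were 0.67 to 0.84 within PEO4, 0.88 within PEO1 and 0.61 to 0.79 between the lines, and genes are not independent replicates. The lowest within a line was between PEO4 replicates 2 and 3. PEO4 replicate 2 listed the widely expressed genes HPRT1, NDUFB2 and LSM3 at 0, so that a 0 in these files need not mean absence. NDUFB2 was low in PEO4 replicates 1 and 3 too, at 7.26 and 12.6 rescaled TPM, against 78.3 to 148.5 in PEO1. The difference between the lines also followed GC content. Its median ran from -0.48 in the genes lowest in GC content (2766 genes, median GC 38.8%) to 0.55 in those highest (2766 genes, median GC 61.9%), and the trend was steepest in PEO4 replicate 2 and, in the opposite sense, in PEO1 replicate 3. The share of RNA in cytosolic ribosomal protein genes was 7.51% to 9.58% in PEO4 and 11.8% to 14.5% in PEO1. What part GC content and RNA composition have in the results was examined only by the correction for GC content and transcript length given below.

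Between untreated PEO4 and untreated PEO1, 1192 of 15013 tested genes were called at an adjusted p under 0.05, or 7.94%. Of these, 693 were higher in PEO4 (4.62% of those tested) and 499 lower (3.32%). The test was limma on log2(rescaled TPM + 1) with Benjamini-Hochberg adjustment over all 15013 genes, and differences below are PEO4 minus PEO1 on that scale, ± the standard error of the fit, with 3 libraries per line. This scale understates the change of weakly expressed genes. At an unadjusted p under 0.05 the shares over all tested genes were 12.4% higher and 11.9% lower, against which the unadjusted counts of the lists below are to be read. No called gene overlapped between the lines, while 14.8% of all tested genes had all PEO4 libraries above all PEO1 libraries and 15.8% below. In 117 of the higher genes all 3 PEO1 libraries were listed at 0, and in 119 of the lower genes all 3 PEO4 libraries were. For such genes the levels are given without a difference. With 1 library left out the number called ran from 305, without PEO1 replicate 1, to 1285, without PEO4 replicate 3, and it was 328 without PEO1 replicate 3, 439 without PEO4 replicate 1 and 442 without PEO1 replicate 2. In all 6 such fits 267 genes were called, 183 higher and 84 lower. After correction for GC content and length 604 genes were higher and 596 lower of 13829 that could be corrected, which kept 881 of the 1083 calls among them and reversed none.

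The 12 genes with the most positive differences, among those called and reaching 10 rescaled TPM in the higher line, spanned antiviral genes, lineage factors and secreted proteins. IFI27, an interferon-induced mitochondrial protein, stood at 626, 626 and 1060.1 rescaled TPM in PEO4 against 0, 0 and 0 in PEO1 (adjusted p = 0.000117). BST2, the surface protein tetherin that holds budding viruses to the cell, stood at 211, 198 and 269 rescaled TPM in PEO4 against 0, 0 and 0 in PEO1 (adjusted p = 0.000392). Neither transcript was listed above 0 in any PEO1 library.

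OBP2B, an odorant-binding lipocalin, stood at 208, 373 and 180.3 rescaled TPM in PEO4 against 0, 0 and 0 in PEO1 (adjusted p = 0.000392), and it has a near-identical copy, OBP2A, that makes the assignment of its reads uncertain. SLC39A4, the zinc importer ZIP4, stood at 221, 234 and 161 rescaled TPM in PEO4 against 0, 0 and 0 in PEO1 (adjusted p = 0.000392). EMX2, a homeobox factor needed for the urogenital tract, stood at 178, 253 and 123 rescaled TPM in PEO4 against 0, 0 and 0 in PEO1 (adjusted p = 0.000444). PEO1 listed all 3 genes at 0. EMX2OS, the antisense neighbour of EMX2, differed by 6.58 ± 0.49 (adjusted p = 0.000763), with 119.7, 149 and 77.8 rescaled TPM in PEO4 against 0, 0.630 and 0 in PEO1. The files do not say whether counting used strand, so reads of EMX2 and EMX2OS may have been exchanged.

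SNCG, encoding gamma-synuclein, differed by 7.48 ± 0.84 (adjusted p = 0.00379), with 584, 1233 and 605 rescaled TPM in PEO4 against 0, 8.44 and 7.20 in PEO1. CRABP2, which carries retinoic acid to its nuclear receptor, differed by 7.33 ± 0.65 (adjusted p = 0.00147), with 959, 1424 and 689.96 rescaled TPM in PEO4 against 5.13, 14.6 and 1.38 in PEO1. BGN, the matrix proteoglycan biglycan, was the most abundant of the 12 at 2186, 4579 and 872 rescaled TPM in PEO4 against 20.5, 37.6 and 12.6 in PEO1, a difference of 6.52 ± 0.63 (adjusted p = 0.00194). PEO4 replicate 2 was the highest library for each of these 3 genes, and the lowest PEO4 library still lay above every PEO1 library. The remaining genes of the 12 were FAM101A, an actin regulator also called RFLNA, with 183, 154 and 222 rescaled TPM in PEO4 against 0, 2.23 and 0 in PEO1 (adjusted p = 0.00103), KLHL14, a kelch protein, with 101.1, 124 and 85.1 rescaled TPM in PEO4 against 0, 0 and 0.305 in PEO1 (adjusted p = 0.000498), and TMEM132E, a neural transmembrane protein, with 83.5, 131 and 51.5 rescaled TPM in PEO4 against 0, 0 and 0 in PEO1 (adjusted p = 0.00103). All 12 calls held whichever library was left out.

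At the other end, PEO4 held far less of several secreted and matrix genes. IGFBP3, which binds insulin-like growth factors in the extracellular space, differed by -7.72 ± 0.52 (adjusted p = 0.000498), with 8.88, 2.06 and 1.91 rescaled TPM in PEO4 against 672, 1012 and 1196 in PEO1. IGFBP5, of the same family, differed by -6.36 ± 0.55 (adjusted p = 0.00137), with 2.72, 8.42 and 2.33 rescaled TPM in PEO4 against 407, 679 and 234 in PEO1. KISS1, which encodes the metastasis suppressor kisspeptin, stood at 0, 0 and 0 rescaled TPM in PEO4 against 47.6, 138 and 201 in PEO1 (adjusted p = 0.00147). No PEO4 library reached 10 rescaled TPM of any of these messages, which were abundant in every PEO1 library.

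The basement membrane collagens COL4A1 and COL4A2, whose genes share a promoter region, were both lower. COL4A1 differed by -5.64 ± 0.77 (adjusted p = 0.00644), with 7.79, 1.61 and 0 rescaled TPM in PEO4 against 173, 171 and 93.9 in PEO1, and COL4A2 by -5.86 ± 0.73 (adjusted p = 0.00493), with 12.6, 0.833 and 6.20 rescaled TPM in PEO4 against 368, 483 and 195 in PEO1. FN1, fibronectin, differed by -5.31 ± 0.56 (adjusted p = 0.00318), with 14.8, 10.1 and 46.5 rescaled TPM in PEO4 against 739, 1211 and 580.4 in PEO1. TGFBI, a matrix protein induced by TGF-beta, stood at 1.03, 0 and 0 rescaled TPM in PEO4 against 126, 194 and 67.9 in PEO1 (adjusted p = 0.00137). PEO4 kept a measurable level of FN1 in every library, but at most 1.03 rescaled TPM of TGFBI.

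The remaining genes at this end were of mixed function. WNT5B, a Wnt ligand, stood at 0, 0 and 0 rescaled TPM in PEO4 against 71.4, 95.6 and 47.5 in PEO1 (adjusted p = 0.00103), IL1R2, the decoy receptor for interleukin-1, at 0, 0 and 0 rescaled TPM in PEO4 against 64.6, 46.5 and 77.01 in PEO1 (adjusted p = 0.00103), and RBP7, a retinol-binding protein, at 0, 0 and 0 rescaled TPM in PEO4 against 35.2, 49.8 and 75.9 in PEO1 (adjusted p = 0.00147). All 3 were listed at 0 in every PEO4 library. SIRPA, the receptor for CD47, differed by -5.48 ± 0.70 (adjusted p = 0.00532), with 5.17, 4.12 and 0 rescaled TPM in PEO4 against 155, 159 and 112 in PEO1. S100A9, a calprotectin subunit, stood at 17.9, 0 and 72.5 rescaled TPM in PEO4 against 821, 953 and 902 in PEO1 (adjusted p = 0.0310) and varied widely within PEO4. Its call was lost without PEO4 replicate 1 or without any PEO1 replicate, with adjusted p up to 0.124, whereas the other 11 held in every such fit.

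**Figure D1:**
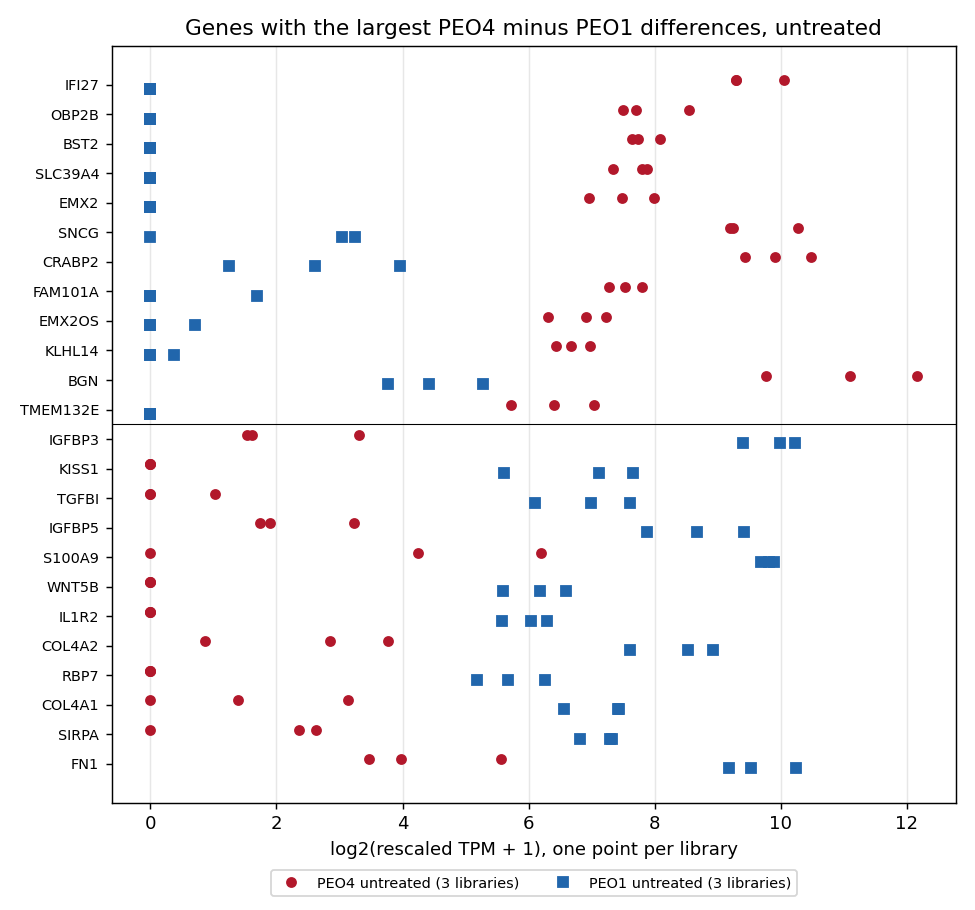
Level of the 24 genes with the largest called differences, as log2(rescaled TPM + 1) on the horizontal axis, 1 point per library, with 3 PEO4 libraries (circles) above 3 PEO1 libraries (squares) in each row. The 12 genes above the line were higher in PEO4 and the 12 below it lower, and the libraries of the lines overlap in no row.

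Of 49 interferon-stimulated genes on the list 44 were tested, and 22 of these, or 50.0%, were higher in PEO4 (background 4.62%), 22 did not pass and 0 were lower. At an unadjusted p under 0.05 limma had 33 higher and 0 lower, against 12.4% and 11.9% of all tested genes. The median difference was 1.53 over the 44 members, against -0.06 over all tested genes, and 42 of 44 differences were positive. In each PEO4 library the median member stood above its mean over the 6 libraries, by 1.12, 0.94 and 0.89, and in each PEO1 library below it, by -0.71, -0.91 and -1.28. The count fell to 12 without PEO4 replicate 1, 13 without PEO1 replicate 3 and 14 without PEO1 replicate 1, and 12 members were called in all 6 such fits. With GC content and length corrected, 26 of 44 were higher.

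Of 23 tested antiviral effectors 14 were higher, with a median difference of 2.182. MX1, a GTPase that traps viral nucleocapsids, differed by 4.58 ± 0.26 (adjusted p = 0.000402), with 505, 564 and 465 rescaled TPM in PEO4 against 17.9, 21.3 and 21.9 in PEO1. IFITM1, a membrane protein that blocks viral entry and has close copies in IFITM2 and IFITM3 that can share its reads, differed by 5.998 ± 0.57 (adjusted p = 0.00194), with 718, 1334 and 543 rescaled TPM in PEO4 against 16.5, 19.96 and 4.46 in PEO1. IFI6, an interferon-induced membrane protein, differed by 5.87 ± 0.43 (adjusted p = 0.000748), with 314, 711 and 344 rescaled TPM in PEO4 against 6.59, 4.17 and 8.87 in PEO1. In each case the lowest PEO4 library lay more than an order of magnitude above the highest PEO1 library. Further members called in all 6 fits, named after their values were seen, were the oligoadenylate synthetases OAS1, OAS2 and OAS3, which activate RNase L, the ubiquitin-like modifier ISG15, MX2, IFITM2 and XAF1. OAS2, MX2 and IFITM2 were listed at 0 in all PEO1 libraries, and ISG15 stood at 647, 1125 and 486 in PEO4 and at 68.9, 62.4 and 30.2 in PEO1.

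Of 7 tested signalling members and transcription factors 3 were higher, and of 4 tested nucleic acid sensors 1 was. That one was IFI16, with a difference of 1.52, whereas the RNA sensors DDX58, IFIH1 and DHX58 did not pass. IRF9, the DNA-binding subunit of the interferon-stimulated factor, differed by 2.57 ± 0.60 (adjusted p = 0.0422), with 58.5, 82.1 and 42.7 rescaled TPM in PEO4 against 18.3, 11.6 and 3.27 in PEO1, and its call held only without PEO4 replicate 3 and was lost without any other library, with adjusted p up to 0.128. STAT2, its partner in that complex, did not pass, with 20.1, 24.5 and 8.62 rescaled TPM in PEO4 against 8.63, 13.7 and 6.93 in PEO1, a difference of 0.73 ± 0.53 (adjusted p = 0.451).

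The promoters of the members with the largest differences are shown because they carry the element through which interferon acts. The interferon-stimulated response element was searched as the bases GAAA repeated after a gap of 2 bases, or the same with TTTC, which covers both strands, in 300 bases running from 250 before to 50 after the RefSeq start of the gene (build GRCh38.p14, 5′ to 3′ along the gene). The element is in capitals, and overlapping matches run together.
IFI27 (chr14:94110486-94110785, + strand): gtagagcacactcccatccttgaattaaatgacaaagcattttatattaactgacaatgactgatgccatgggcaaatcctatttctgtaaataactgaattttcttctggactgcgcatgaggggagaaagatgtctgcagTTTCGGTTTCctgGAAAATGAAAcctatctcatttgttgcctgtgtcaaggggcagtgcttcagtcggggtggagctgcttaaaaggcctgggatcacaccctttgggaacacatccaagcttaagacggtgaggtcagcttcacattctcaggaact
BST2 (chr19:17405581-17405880, - strand): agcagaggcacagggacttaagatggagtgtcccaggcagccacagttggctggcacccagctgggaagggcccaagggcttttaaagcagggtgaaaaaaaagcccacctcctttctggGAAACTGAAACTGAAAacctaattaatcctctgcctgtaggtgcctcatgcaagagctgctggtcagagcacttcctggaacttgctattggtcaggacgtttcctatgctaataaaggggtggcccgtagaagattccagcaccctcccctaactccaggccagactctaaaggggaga
IFITM1 (chr11:313790-314089, + strand): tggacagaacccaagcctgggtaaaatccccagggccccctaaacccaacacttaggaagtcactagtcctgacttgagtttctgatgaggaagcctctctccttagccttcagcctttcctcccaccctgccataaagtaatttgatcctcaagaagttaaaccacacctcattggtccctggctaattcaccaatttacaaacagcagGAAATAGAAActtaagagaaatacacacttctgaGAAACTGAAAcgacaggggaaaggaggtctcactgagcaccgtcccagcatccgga
IFI6 (chr1:27672143-27672442, - strand): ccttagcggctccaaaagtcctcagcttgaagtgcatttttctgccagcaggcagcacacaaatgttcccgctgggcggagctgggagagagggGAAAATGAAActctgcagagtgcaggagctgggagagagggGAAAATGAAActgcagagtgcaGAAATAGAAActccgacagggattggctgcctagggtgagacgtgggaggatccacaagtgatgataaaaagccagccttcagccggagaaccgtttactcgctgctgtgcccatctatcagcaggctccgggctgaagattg
Each of these 4 windows spans the upstream region and the start of the first exon of its gene, and holds 2 or 3 matches. Of the 35 promoters of the list that could be matched 21 held the element, or 60.0%, against 3.57% of all 35116 promoters in the table and 2.87% of the 10677 promoters of tested genes. Among the list's members the share was 61.1% of 18 promoters of genes higher in PEO4 and 50.0% of 14 promoters of genes that did not pass. A match is a description of the letters in the window and not a bound site.

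**Figure D2:**
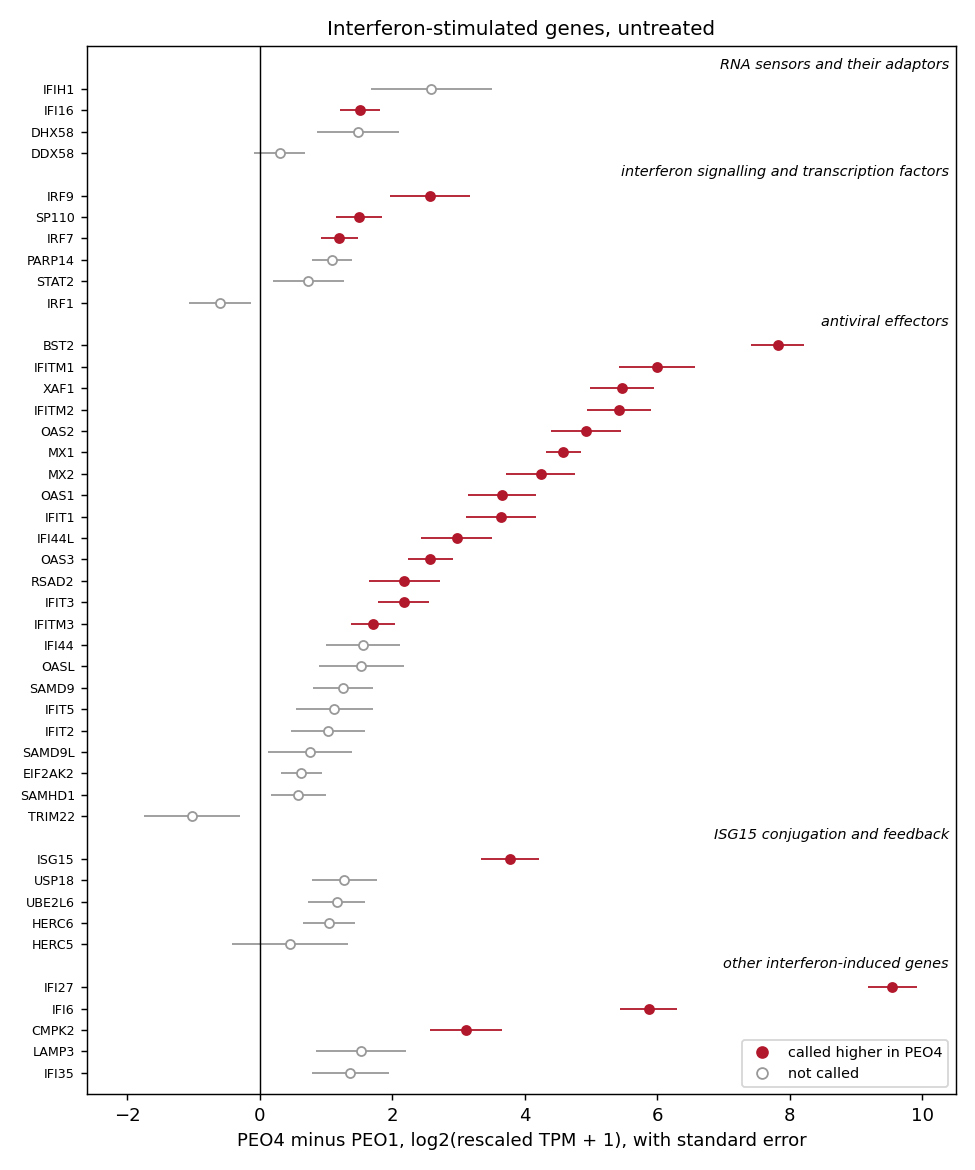
PEO4 minus PEO1 difference of tested interferon-stimulated genes on the log2(rescaled TPM + 1) scale, with the standard error of the fit as the bar, grouped by role. Of the genes drawn 22 are called higher (filled points), led by IFI27, BST2 and IFITM1, and only IRF1 and TRIM22, neither of them called, lie left of 0.

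MHC class I genes present peptides to T cells, and interferon is known to induce many of them. Of 20 tested members 1 was higher and 0 lower, with 4 higher and 0 lower at an unadjusted p under 0.05, and the median difference was 0.39. B2M, the light chain, did not pass at 121, 35.2 and 104.03 rescaled TPM in PEO4 against 103.7, 110.3 and 202 in PEO1 (-0.79 ± 0.52, adjusted p = 0.402) and overlapped between the lines. Of 9 class II genes 7 were below the level tested and 0 of the other 2 passed, with 0 of 2 at an unadjusted p under 0.05.

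Of 16 tested Müllerian and serous ovarian genes 8 were higher, or 50.0%, 8 did not pass and 0 were lower, with 13 higher and 0 lower at an unadjusted p under 0.05, and the median difference was 2.39. The count was 7 to 9 with 1 library left out and 8 after correction for GC content. The list was chosen with results of these lines known, so its direction is not independent evidence. Mesothelial markers stood higher beside them, with 5 of 5 tested differences positive, 1 called (DES), 4 higher at an unadjusted p under 0.05 and a median of 2.20, and MSLN is on both lists. Their part in this result was not tested.

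Among the lineage factors, WT1 differed by 4.18 ± 0.43 (adjusted p = 0.00270), with 80.5, 88.6 and 76.1 rescaled TPM in PEO4 against 6.19, 2.60 and 2.63 in PEO1. PAX8, the factor used by pathologists to mark Müllerian origin, differed by 1.69 ± 0.36 (adjusted p = 0.0326), with 319.8, 452 and 184 rescaled TPM in PEO4 against 99.3, 89.6 and 86.5 in PEO1. The PAX8 call held without PEO4 replicate 3 and was lost without any other library (adjusted p up to 0.126), though no library overlapped. ESR1, the oestrogen receptor, stood at 57.2, 84.6 and 44.3 in PEO4 and at 21.5, 34.6 and 27.6 in PEO1 and did not pass (1.10 ± 0.37, adjusted p = 0.119).

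Among the antigens, MUC16, which carries the serum marker CA125, differed by 4.36 ± 0.52 (adjusted p = 0.00432), with 510.3, 639.8 and 269 rescaled TPM in PEO4 against 19.6, 40.2 and 11.1 in PEO1. FOLR1, the folate receptor alpha targeted by antibody-drug conjugates, stood at 49.97, 61.5 and 86.3 rescaled TPM in PEO4 against 0, 0 and 0 in PEO1 (adjusted p = 0.00103). KLK7, a kallikrein protease, differed by 5.80 ± 0.35 (adjusted p = 0.000444), with 378, 353 and 283 rescaled TPM in PEO4 against 5.28, 3.34 and 7.08 in PEO1. PEO4 therefore expressed 3 antigens of serous cancer that PEO1 held at a low level or listed at 0. MSLN, mesothelin, stood at 504, 951 and 184 in PEO4 and at 98.1, 129.6 and 69.2 in PEO1 and did not pass (2.20 ± 0.58, adjusted p = 0.0575), with PEO4 replicate 2 the highest of all and PEO4 replicate 3 the nearest to PEO1.

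**Figure D3:**
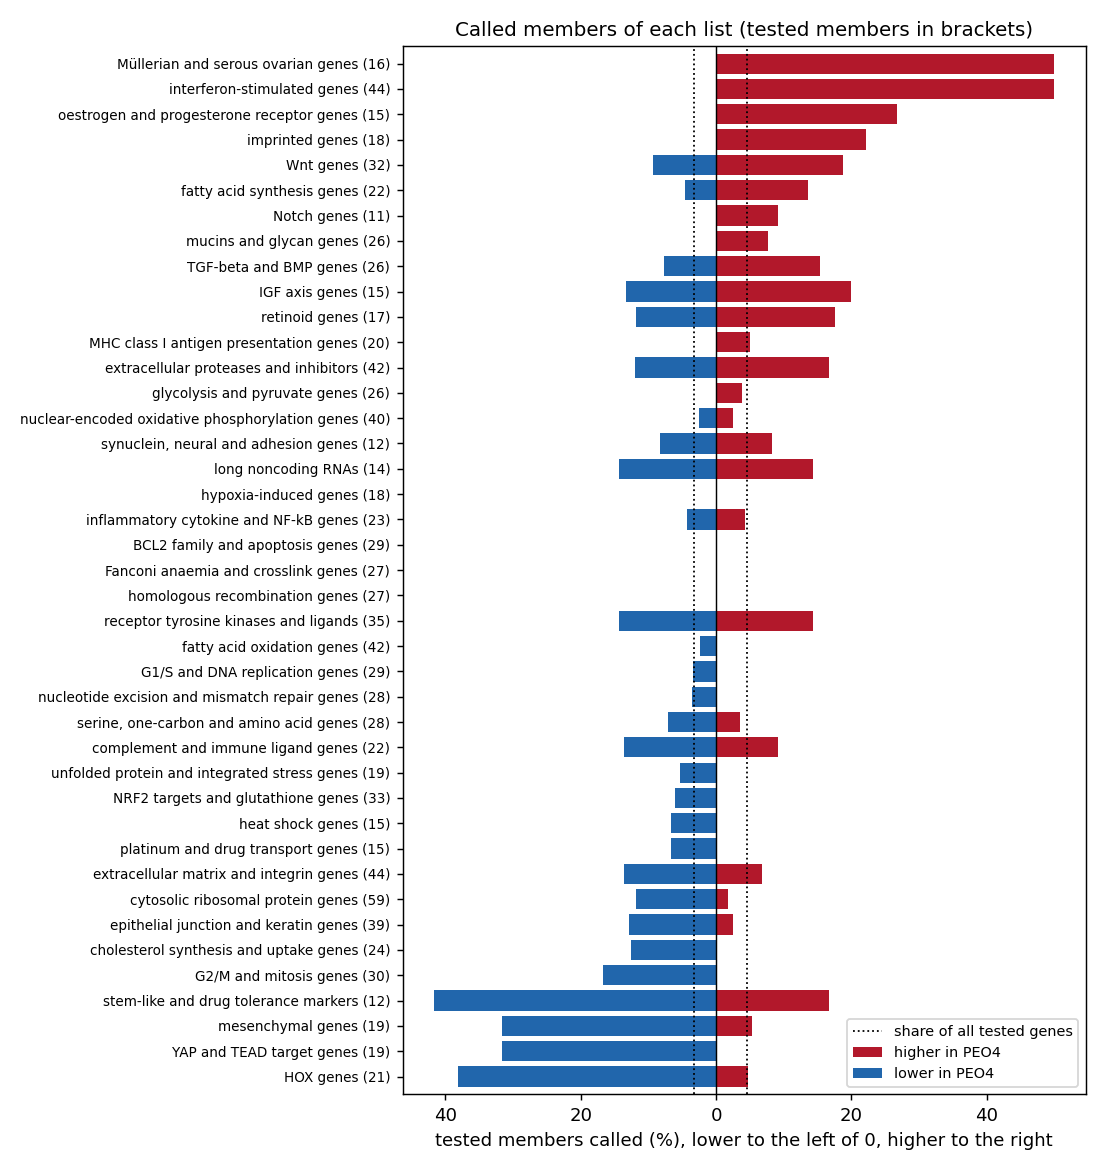
Share of tested members called higher (bars to the right) or lower (bars to the left) in PEO4 for gene lists with at least 10 tested members, in percent, with the number tested in brackets. Dotted lines mark the shares over all tested genes, 4.62% higher and 3.32% lower; the interferon-stimulated and Müllerian lists reach 50.0% higher, and HOX genes and stem-like markers have the largest shares of lower members.

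Of 39 tested junction and keratin genes 1 was higher and 5 were lower, with a median difference of -0.40. EPCAM, the epithelial adhesion molecule, did not pass at 163, 237 and 152 rescaled TPM in PEO4 against 211, 228 and 305 in PEO1 (-0.44 ± 0.30, adjusted p = 0.414), nor did the simple-epithelium keratins KRT8 (-0.47 ± 0.30, adjusted p = 0.397) and KRT18 (-0.66 ± 0.32, adjusted p = 0.248). KRT8 stood at 1244, 1463 and 998 in PEO4 and at 1651, 2171 and 1337 in PEO1, and KRT18 at 2128, 2509 and 1735 in PEO4 and at 3444, 4205 and 2541 in PEO1. CDH1, E-cadherin, stood lower in every PEO4 library but did not pass, at 34.8, 21.9 and 25.4 in PEO4 and at 44.7, 75.3 and 46.2 in PEO1 (adjusted p = 0.153).

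KRT7 differed by -3.45 ± 0.28 (adjusted p = 0.00103), with 266, 223 and 304 rescaled TPM in PEO4 against 2724, 3613 and 2390.03 in PEO1, and KRT81, a hair keratin with near-identical relatives, by -3.78 ± 0.32 (adjusted p = 0.00137), with 36.9, 51.5 and 34.5 rescaled TPM in PEO4 against 514, 789 and 445 in PEO1. KRT7 remained abundant in PEO4 while lying far below PEO1 in each library. CDH3, P-cadherin, differed by -4.45 ± 0.70 (adjusted p = 0.0114), with 4.67, 0 and 3.44 rescaled TPM in PEO4 against 50.5, 86.5 and 57.1 in PEO1, and OVOL1, a repressor that keeps epithelial cells from becoming mesenchymal, by 3.49 ± 0.52 (adjusted p = 0.00909), with 49.6, 47.8 and 26.2 rescaled TPM in PEO4 against 1.64, 2.08 and 4.83 in PEO1. The CDH3 call was lost without any PEO1 replicate (adjusted p up to 0.0639), and that of OVOL1 without PEO4 replicate 1 or PEO1 replicate 1 (adjusted p up to 0.0524). Without PEO1 replicate 2 the number of lower members was 2, and it was 3 without PEO1 replicate 1 or 3. After correction for GC content 8 members were lower and 2 higher.

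Of 19 tested mesenchymal genes 1 was higher and 6 were lower, with a median difference of -0.65. None of the 3 tested transcription factors among them passed, and all 7 calls were of cytoskeletal, adhesion, matrix and receptor genes. CDH11, a cadherin of mesenchymal cells, stood at 0, 0 and 0 rescaled TPM in PEO4 against 20.3, 14.1 and 20.2 in PEO1 (adjusted p = 0.00406). TPM1, a tropomyosin of actin filaments, differed by -3.66 ± 0.32 (adjusted p = 0.00147), with 51.4, 26.2 and 29.6 rescaled TPM in PEO4 against 485, 423 and 423 in PEO1. MYL9, a myosin light chain, went the other way at 42.1, 44.5 and 25.9 rescaled TPM in PEO4 against 0, 0 and 1.39 in PEO1, a difference of 4.81 ± 0.57 (adjusted p = 0.00432). VIM, vimentin, was low in both lines and did not pass, at 12.4, 0 and 0 in PEO4 and at 11.8, 5.23 and 3.79 in PEO1 (adjusted p = 0.402). The number lower was 4 without PEO4 replicate 1 and without any PEO1 replicate.

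Extracellular matrix genes moved in both directions. Of 44 tested matrix and integrin genes 3 were higher and 6 were lower. The higher ones were collagens, and COL6A2, a chain of the beaded microfilament collagen, stood at 52.1, 101.7 and 38.3 rescaled TPM in PEO4 against 0, 0 and 0 in PEO1 (adjusted p = 0.00155). The type IV chains, FN1 and TGFBI were lower, as given above, so that called collagens lay on both sides. With 1 library left out 1 to 4 members were higher, with 1 without PEO4 replicate 1, PEO1 replicate 1 or PEO1 replicate 3.

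Of 42 tested extracellular proteases and inhibitors 7 were higher and 5 lower. SERPINA1, alpha-1-antitrypsin, differed by 4.01 ± 0.56 (adjusted p = 0.00700), with 17.9, 26.7 and 10.8 rescaled TPM in PEO4 against 0, 0.473 and 0 in PEO1. SERPINE2, an inhibitor of thrombin and plasminogen activators, differed by -3.65 ± 0.83 (adjusted p = 0.0390), with 4.02, 0 and 9.21 rescaled TPM in PEO4 against 55.7, 32.7 and 52.3 in PEO1, and PI3, the elastase inhibitor elafin, by 3.51 ± 0.78 (adjusted p = 0.0362), with 37.7, 11.5 and 10.9 rescaled TPM in PEO4 against 0, 0 and 2.92 in PEO1. The calls of SERPINE2 and PI3 were lost without PEO4 replicate 1 or any PEO1 replicate, with adjusted p up to 0.152 and 0.147. No lower member was called without PEO1 replicate 1 or PEO1 replicate 3, and 1 was without PEO4 replicate 1 or PEO1 replicate 2. The number higher was 4 without PEO1 replicate 2 or 3.

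Of 15 tested genes of the insulin-like growth factor axis 3 were higher and 2 lower. IGF1R, the receptor that transmits the signal, differed by 4.99 ± 0.54 (adjusted p = 0.00341), with 44.7, 69.8 and 25.6 rescaled TPM in PEO4 against 0.395, 0.246 and 0.527 in PEO1. IGF2, its ligand, stood at 58.02, 51.5 and 7.58 rescaled TPM in PEO4 against 0, 0 and 0 in PEO1 (adjusted p = 0.0128). PEO1 thus held less than 1 rescaled TPM of the receptor and listed the ligand at 0, while it held the binding proteins IGFBP3 and IGFBP5 at 234 rescaled TPM or more in every library. The IGF2 call was lost without PEO4 replicate 1 or any PEO1 replicate (adjusted p up to 0.0663), and the number higher was then 1.

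Retinoid genes showed 3 higher and 2 lower of 17 tested. Beside CRABP2, the chemoattractant RARRES2, induced by retinoids, differed by 6.20 ± 0.60 (adjusted p = 0.00194), with 97.2, 146 and 91.6 rescaled TPM in PEO4 against 0, 2.39 and 0 in PEO1. ALDH1A3, an enzyme that makes retinoic acid from retinal, differed by -5.29 ± 0.56 (adjusted p = 0.00328), with 10.7, 9.14 and 45.1 rescaled TPM in PEO4 against 594, 741 and 739 in PEO1. RDH10, which makes retinal from retinol, differed by 2.62 ± 0.54 (adjusted p = 0.0296), with 9.38, 8.02 and 6.19 rescaled TPM in PEO4 against 0, 1.18 and 0.333 in PEO1. The last of these calls held without PEO4 replicate 3 and was lost without any other library (adjusted p up to 0.127), and the number lower was 1 without PEO4 replicate 1 or any PEO1 replicate.

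Of 15 tested oestrogen and progesterone receptor genes 4 were higher and 0 lower, with 6 higher and 1 lower at an unadjusted p under 0.05. GREB1, an oestrogen-induced cofactor, differed by 3.68 ± 0.60 (adjusted p = 0.0134), with 17.3, 48.96 and 18.9 rescaled TPM in PEO4 against 2.15, 0.729 and 0.582 in PEO1, and CTSD, the lysosomal protease cathepsin D, by 2.06 ± 0.49 (adjusted p = 0.0443), with 493, 914 and 363 rescaled TPM in PEO4 against 131, 227 and 75.1 in PEO1. The GREB1 call was lost without PEO1 replicate 2 or 3 (adjusted p up to 0.0673), and that of CTSD held only without PEO4 replicate 3 (adjusted p up to 0.159 otherwise), so that the number higher was 2 without PEO1 replicate 2 or 3.

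Of 35 tested receptor tyrosine kinases and ligands 5 were higher and 5 lower. Beside IGF1R the higher receptors were FGFR3, with 57.3, 55.5 and 39.8 rescaled TPM in PEO4 against 9.95, 0.788 and 1.996 in PEO1 (adjusted p = 0.0209), FGFR4, with 6.18, 3.82 and 7.08 rescaled TPM in PEO4 against 0, 0 and 0 in PEO1 (adjusted p = 0.0209), and ERBB4, with 7.07, 5.71 and 3.65 rescaled TPM in PEO4 against 0, 0 and 0 in PEO1 (adjusted p = 0.0227). FGFR3 and FGFR4 bind fibroblast growth factors and ERBB4 binds neuregulins. The calls of FGFR4 and ERBB4 were lost without PEO4 replicate 1 or any PEO1 replicate, and that of FGFR3 without PEO4 replicate 1, PEO1 replicate 2 or PEO1 replicate 3 (adjusted p up to 0.0901 for FGFR4, 0.0954 for ERBB4 and 0.0941 for FGFR3). FGFR4 was also lost after correction for GC content (adjusted p = 0.0916). Without PEO1 replicate 1 or 2 no member was called lower, and without PEO4 replicate 1, PEO1 replicate 2 or PEO1 replicate 3 the number higher was 1.

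TGF-beta and BMP genes had 4 of 26 tested members higher and 2 lower, and 5 of these calls held in every fit with a library left out. BMP7, a ligand, differed by 4.81 ± 0.54 (adjusted p = 0.00379), with 135, 212 and 58.4 rescaled TPM in PEO4 against 4.88, 2.71 and 2.61 in PEO1. ID4, a target of BMP signals that blocks basic helix-loop-helix factors, differed by 5.12 ± 0.41 (adjusted p = 0.00103), with 192, 218 and 159.7 rescaled TPM in PEO4 against 2.54, 4.42 and 7.47 in PEO1, and SMAD6, an inhibitor induced by BMPs, by 4.45 ± 0.38 (adjusted p = 0.00137), with 119, 132 and 105.5 rescaled TPM in PEO4 against 3.46, 3.83 and 6.64 in PEO1. These 3 did not overlap between the lines, but they were named for their large differences. Over the list the median difference was -0.26 and 11 of 26 differences were positive. At an unadjusted p under 0.05, 6 members were higher and 6 lower. INHBA, an activin subunit, differed by -4.68 ± 0.63 (adjusted p = 0.00637), with 0, 0 and 2.31 rescaled TPM in PEO4 against 32.4, 31.5 and 50.2 in PEO1.

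Of 32 tested Wnt genes 6 were higher and 3 lower. WNT6 differed by 4.65 ± 0.82 (adjusted p = 0.0172), with 97.95, 119.8 and 87.3 rescaled TPM in PEO4 against 6.01, 8.57 and 0 in PEO1, and WNT11, a ligand of the noncanonical branch, by 3.93 ± 0.62 (adjusted p = 0.0115), with 30.6, 42.5 and 23.7 rescaled TPM in PEO4 against 2.63, 1.66 and 0 in PEO1. LGR6, a receptor for R-spondins, differed by 4.84 ± 0.58 (adjusted p = 0.00436), with 46.5, 63.7 and 28.5 rescaled TPM in PEO4 against 1.63, 0.473 and 0 in PEO1. WNT5B, listed at 0 in PEO4, lay on the other side. The WNT11 call was lost without PEO4 replicate 1 (adjusted p = 0.0540) and that of WNT6 without PEO4 replicate 1 or PEO1 replicate 1 (adjusted p up to 0.0731). The number lower was 1 without PEO1 replicate 1, and the number higher was 3 without PEO4 replicate 1 or PEO1 replicate 1.

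YAP and TEAD are the factors of the Hippo pathway, and 6 of 19 tested target genes were lower and 0 higher, with 8 lower and 1 higher at an unadjusted p under 0.05. DLC1, a GTPase-activating protein, differed by -3.56 ± 0.45 (adjusted p = 0.00530), with 3.28, 1.81 and 1.68 rescaled TPM in PEO4 against 35.6, 42.7 and 31.9 in PEO1. F3, tissue factor, differed by -2.90 ± 0.46 (adjusted p = 0.0121), with 10.95, 4.85 and 9.002 rescaled TPM in PEO4 against 52.3, 51.1 and 103.7 in PEO1, and FOXF2, a forkhead factor, stood at 0, 0 and 0 rescaled TPM in PEO4 against 13.8, 11.7 and 3.70 in PEO1 (adjusted p = 0.0209). IGFBP3 counts in this list too. The count fell to 2 without PEO1 replicate 1 and to 3 without PEO4 replicate 1, PEO1 replicate 2 or PEO1 replicate 3. The F3 call was lost without PEO1 replicate 1 or 3 and that of FOXF2 without PEO4 replicate 1, PEO1 replicate 1 or PEO1 replicate 2 (adjusted p up to 0.0661 and 0.0861). Of 11 tested Notch genes 1 passed, HES4, a transcriptional repressor, with 111, 209.5 and 80.5 rescaled TPM in PEO4 against 16.9, 38.02 and 24.5 in PEO1 (adjusted p = 0.0280), and it was lost after correction for GC content (adjusted p = 0.101) and without any library but PEO4 replicate 3.

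HOX genes encode the homeobox factors that set position along the body axis. Of 39 genes 18 were below the level tested, and of the other 21 there were 8 lower and 1 higher, with a median difference of -2.06. HOXA10, which patterns the uterus, differed by -4.95 ± 0.55 (adjusted p = 0.00379), with 1.33, 0 and 0 rescaled TPM in PEO4 against 50.3, 34.1 and 37.4 in PEO1. HOXC9 differed by -4.79 ± 0.74 (adjusted p = 0.0105), with 3.89, 0 and 0 rescaled TPM in PEO4 against 50.1, 66.6 and 28.7 in PEO1, and HOXD8 by -3.67 ± 0.56 (adjusted p = 0.00989), with 1.13, 0 and 0 rescaled TPM in PEO4 against 13.5, 13.1 and 20.6 in PEO1. HOXB9 stood at 0, 0 and 0 rescaled TPM in PEO4 against 11.1, 8.19 and 9.89 in PEO1 (adjusted p = 0.00767). Lower members came from all 4 clusters, and most PEO4 libraries listed them at 0. HOXB3, chosen after its values were seen, was the 1 higher call. It stood at 256, 362 and 195 rescaled TPM in PEO4 against 47.7, 59.2 and 41.2 in PEO1 (2.40 ± 0.33, adjusted p = 0.00644). Over the 21 members 4 differences were positive, with 3 higher and 11 lower at an unadjusted p under 0.05. In the HOXB cluster 3 members had all PEO4 libraries above all PEO1 libraries and 3 below.

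The number of lower HOX genes fell to 3 without any PEO1 replicate and to 4 without PEO4 replicate 1, and the 3 HOX calls that held in every fit were HOXA10, HOXB9 and HOXB3. That of HOXC9 was lost without PEO1 replicate 1 or 2, and that of HOXD8 without PEO1 replicate 3 (adjusted p up to 0.0629 and 0.0593).

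Imprinted genes, expressed from 1 parental copy, had 4 of 18 tested members higher and 0 lower, with 4 higher and 2 lower at an unadjusted p under 0.05. MEST differed by 2.67 ± 0.30 (adjusted p = 0.00379), with 303, 243 and 199.9 rescaled TPM in PEO4 against 30.6, 39.98 and 43.4 in PEO1, and PEG10 by 1.87 ± 0.31 (adjusted p = 0.0134), with 87.4, 84.8 and 77.2 rescaled TPM in PEO4 against 24.2, 17.8 and 24.6 in PEO1. H19, a noncoding RNA that shares its control region with IGF2, stood at 6.33, 16.4 and 4.35 rescaled TPM in PEO4 against 0, 0 and 0 in PEO1 (adjusted p = 0.0233). H19 and IGF2 were listed at 0 in all PEO1 libraries. The count was 1 without PEO4 replicate 1 or any PEO1 replicate, since the calls of H19, IGF2 and PEG10 were lost there (adjusted p up to 0.0986 for H19 and 0.0688 for PEG10).

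Of 12 tested stem-like and drug tolerance markers 2 were higher and 5 lower. CD44, the hyaluronan receptor, differed by -3.96 ± 0.38 (adjusted p = 0.00194), with 7.39, 16.9 and 9.91 rescaled TPM in PEO4 against 159, 169.8 and 226 in PEO1, and SOX9, a progenitor factor, by -4.37 ± 0.47 (adjusted p = 0.00328), with 2.91, 1.35 and 4.99 rescaled TPM in PEO4 against 84.96, 68.1 and 80.3 in PEO1. ALDH1A3, given with the retinoid genes, is also on this list. NES, nestin, stood at 9.18, 13.3 and 5.25 rescaled TPM in PEO4 against 0, 0 and 0 in PEO1 (adjusted p = 0.0134). The resistant line thus held less of 3 genes often used as stem-like markers, and the NES call was lost without PEO4 replicate 1 or any PEO1 replicate (adjusted p up to 0.0673). Without any 1 of these libraries no member was called higher, and the number lower was 3 without PEO4 replicate 1, PEO1 replicate 1 or PEO1 replicate 3.

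Some of the called genes were neighbours on the chromosome. Of 15013 tested genes 14587 could be placed in the gene order of RefSeq, and 31 runs of at least 3 adjacent tested genes called the same way were found, 25 higher and 6 lower, with 118 genes in all. Some were gene clusters already described, such as IFITM2, IFITM1 and IFITM3, OAS1, OAS3 and OAS2, or H19 and IGF2. The longest run held 11 genes, from TONSL through RECQL4, a DNA helicase, to C8orf82. It lay with 8 further runs in 1 stretch from DENND3 to COMMD5 of 85 tested genes.

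In that stretch 58 of 85 genes were higher, or 68.2%, 27 did not pass and 0 were lower, and all 85 differences were positive, against a background of 4.53% higher over all placed genes. At an unadjusted p under 0.05, 78 were higher and 0 lower. The median difference was 2.34, against -0.07 over all placed genes, and in 80 of the 85 all PEO4 libraries lay above all PEO1 libraries. By library the median deviation from the mean over the 6 was 1.19, 1.67 and 0.58 in PEO4 and -1.15, -0.78 and -1.58 in PEO1. With GC content and length corrected the median was 1.60, with 50 of 78 genes higher and 0 lower. The number higher was 20 without PEO1 replicate 1 or 3, 24 without PEO4 replicate 1, 30 without PEO1 replicate 2, 40 without PEO4 replicate 2 and 65 without PEO4 replicate 3, with 0 lower in each. The stretch was picked after its values were seen, so it has no test of its own.

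The stretch includes SLC39A4, described above, DGAT1, which makes triglycerides, with 443, 467 and 657 rescaled TPM in PEO4 against 80.7, 81.4 and 48.9 in PEO1 (2.89 ± 0.32, adjusted p = 0.00376), and CYC1, cytochrome c1 of the respiratory chain, with 245, 211 and 316 rescaled TPM in PEO4 against 68.1, 64.6 and 91.4 in PEO1 (1.77 ± 0.29, adjusted p = 0.0135). The CYC1 call was lost after correction for GC content (adjusted p = 0.185) and without PEO4 replicate 1, PEO1 replicate 1 or PEO1 replicate 2 (adjusted p up to 0.0861). LY6E, an interferon-induced surface protein that is not on the interferon list used here, was singled out with its values known, at 1291, 2003 and 477 rescaled TPM in PEO4 against 67.3, 89.4 and 61.8 in PEO1 (3.88 ± 0.51, adjusted p = 0.00579). After 8 h of carboplatin 49 of the 85 genes were higher in PEO4 and 0 lower, with a median of 1.53, against 5.01% higher and 6.01% lower over all placed genes. The genes of the stretch share only their place in the gene order here, and no value in these files measures the number of copies of a region.

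**Figure D4:**
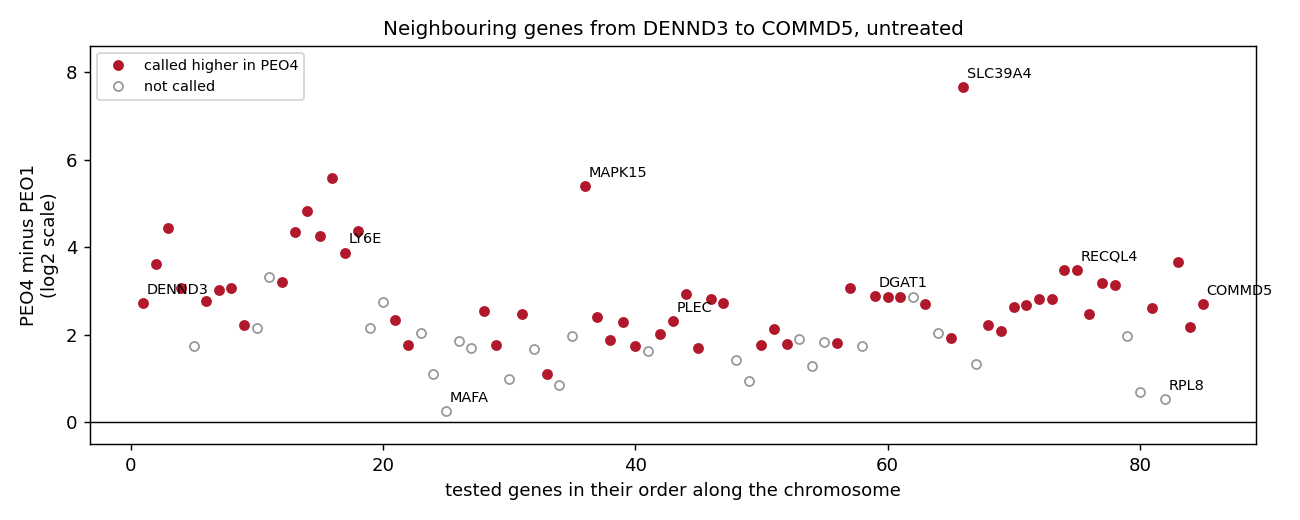
PEO4 minus PEO1 difference of the 85 tested genes from DENND3 to COMMD5 on the log2(rescaled TPM + 1) scale, in their order along the chromosome (horizontal axis, rank and not distance). All 85 points lie above 0, and the 58 called genes are filled.

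The series title concerns CPT1A, which starts mitochondrial fatty acid oxidation by loading fatty acids onto carnitine. It stood at 57.3, 66.2 and 41.7 in PEO4 and at 28.8, 31.5 and 26.3 in PEO1, with every PEO4 library above every PEO1 library, and did not pass (0.89 ± 0.33, adjusted p = 0.147). In the model of all 42 libraries that listed at least 12000 genes the same difference passed (1.003 ± 0.33, adjusted p = 0.0216). Its untreated PEO4 and PEO1 libraries are the same 6, with the spread shared over all groups, so it is not separate evidence. That model called 28.4% of 18013 genes, 2783 higher (15.4%) and 2334 lower, and other genes described here as not passing also passed in it, among them MSLN (adjusted p = 8.83e-05), ESR1 (adjusted p = 0.000945), BRCA1 (adjusted p = 0.00702) and CDH1 (adjusted p = 0.0381). Of 42 tested fatty acid oxidation genes 0 were higher and 1 was lower, with 4 higher and 6 lower at an unadjusted p under 0.05 and a median difference of -0.12. In the model of 42 libraries 8 of them were higher and 7 lower, and with all 54 libraries in the model 0 and 0. The 1 lower in the main fit was ECHS1, the enoyl-CoA hydratase of the oxidation cycle. ECHS1 stood at 38.8, 33.8 and 19.7 rescaled TPM in PEO4 against 105.9, 74.5 and 88.5 in PEO1 (adjusted p = 0.0413). Its call held only without PEO4 replicate 3 (adjusted p up to 0.170 otherwise).

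Of 22 tested fatty acid synthesis genes 3 were higher and 1 lower. Beside DGAT1 the higher ones were THRSP, a lipogenic regulator, with 67.6, 72.1 and 139 rescaled TPM in PEO4 against 22.4, 18.4 and 10.8 in PEO1 (adjusted p = 0.0203), and FADS2, a desaturase, with 58.96, 59.8 and 65.9 rescaled TPM in PEO4 against 25.8, 17.98 and 16.8 in PEO1 (adjusted p = 0.0297). PLIN2, which coats lipid droplets, stood at 0, 0 and 0 rescaled TPM in PEO4 against 2.52, 5.57 and 4.72 in PEO1 (adjusted p = 0.0348). Only the DGAT1 call held in every fit. The THRSP call was lost without PEO4 replicate 1 or any PEO1 replicate, that of FADS2 without any library but PEO4 replicate 3, and that of PLIN2 in each of the 6 fits (adjusted p up to 0.0818, 0.114 and 0.127). FADS2 was also lost after correction for GC content (adjusted p = 0.0954). Over the list the median difference was -0.36 and 8 of 22 differences were positive. At an unadjusted p under 0.05, 4 members were higher and 5 lower. After correction for GC content 2 were called higher and 2 lower, and without rescaling 3 and 3.

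Of 24 tested cholesterol synthesis and uptake genes 3 were lower and 0 higher, with 6 lower and 1 higher at an unadjusted p under 0.05 and a median difference of -0.95. HMGCS1, the synthase that supplies the pathway, differed by -3.70 ± 0.66 (adjusted p = 0.0179), with 1.05, 0.979 and 6.32 rescaled TPM in PEO4 against 50.7, 23.8 and 49.5 in PEO1. SREBF2, the sterol-sensing transcription factor, differed by -1.56 ± 0.37 (adjusted p = 0.0450), with 21.02, 17.005 and 14.8 rescaled TPM in PEO4 against 49.1, 75.3 and 41.1 in PEO1, and NSDHL, a later enzyme, by -1.55 ± 0.34 (adjusted p = 0.0331), with 13.4, 14.2 and 13.2 rescaled TPM in PEO4 against 46.1, 41.8 and 37.96 in PEO1. The count was 0 without PEO4 replicate 1 or any PEO1 replicate, with adjusted p up to 0.0973, 0.149 and 0.151, and 5 after correction for GC content.

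Of 28 tested serine, one-carbon and amino acid genes 1 was higher and 2 lower. PHGDH, the first enzyme of serine synthesis, stood at 52.5, 59.5 and 42.7 rescaled TPM in PEO4 against 163, 141 and 151 in PEO1 (adjusted p = 0.0180). PSAT1, the next enzyme, stood at 16.8, 20.5 and 11.1 rescaled TPM in PEO4 against 84.6, 46.7 and 85.9 in PEO1 (adjusted p = 0.0240). ASS1, which makes argininosuccinate for arginine synthesis, stood at 519, 664 and 338 in PEO4 and at 77.03, 129 and 65.2 in PEO1 (adjusted p = 0.00953). Of 26 tested glycolysis genes 1 was higher, the hexokinase HK2, at 58.9, 45.1 and 111 rescaled TPM in PEO4 against 9.57, 11.9 and 23.97 in PEO1 (adjusted p = 0.0388), and 0 were lower, with 5 higher and 4 lower at an unadjusted p under 0.05. These 4 calls were lost in 3 to 5 of the 6 fits with a library left out, PEO4 replicate 1, PEO1 replicate 1 and PEO1 replicate 3 among them each time (adjusted p up to 0.1001, 0.120, 0.0639 and 0.157), and that of PSAT1 also after correction for GC content (adjusted p = 0.0845).

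DNA repair genes gave 1 call over 3 lists. By limma 0 of 27 tested homologous recombination genes passed (2 higher and 4 lower at an unadjusted p under 0.05), and 0 of 27 Fanconi anaemia and crosslink genes did (2 higher and 1 lower), beside 12.4% higher and 11.9% lower over all tested genes. In the model of 42 libraries 4 homologous recombination genes were higher and 5 lower, and 3 and 2 Fanconi anaemia and crosslink genes were, where 28.4% of all genes were called. With all 54 libraries in the model 0 genes of either list were called. BRCA1 stood at 25.4, 8.83 and 25.2 in PEO4 and at 45.4, 33.3 and 57.6 in PEO1, lower in every PEO4 library, and did not pass (-1.26 ± 0.49, adjusted p = 0.164), but did in the model of 42 libraries (-1.12 ± 0.31, adjusted p = 0.00702). BRCA2 stood at 2.96, 0.912 and 5.07 in PEO4 and at 4.66, 2.02 and 5.43 in PEO1 and overlapped between the lines (-0.42 ± 0.64, adjusted p = 0.734). These values are RNA levels and say nothing of the sequence of either gene. Of 28 nucleotide excision and mismatch repair genes 1 was lower, CETN2, a centrin of the damage-sensing complex, at 14.4, 10.6 and 9.89 rescaled TPM in PEO4 against 39.5, 35.9 and 45.1 in PEO1 (adjusted p = 0.0310), and its call was lost after correction for GC content (adjusted p = 0.136) and without any library but PEO4 replicate 3.

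Of 15 tested platinum and drug transport genes 1 was lower and 0 higher, with 3 lower and 2 higher at an unadjusted p under 0.05. It was SLC22A3, an organic cation transporter, at 0.892, 6.58 and 0 rescaled TPM in PEO4 against 42.7, 62.9 and 50.3 in PEO1 (-4.43 ± 0.75, adjusted p = 0.0152), which was lost without PEO4 replicate 1 or any PEO1 replicate (adjusted p up to 0.0798). The copper transporter SLC31A1, which also takes up platinum, stood at 10.7, 4.42 and 14.3 rescaled TPM in PEO4 against 6.14, 9.73 and 11.8 in PEO1 (-0.003 ± 0.56, adjusted p = 0.998). ATP7B, which exports copper, stood at 1.41, 2.62 and 0.810 rescaled TPM in PEO4 against 2.42, 1.54 and 2.16 in PEO1 (-0.27 ± 0.53, adjusted p = 0.801). Both overlapped between the lines and did not pass. Every one of the 6 libraries listed ABCB1, which pumps drugs out of cells, at 0.

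Of 33 tested NRF2 targets and glutathione genes 2 were lower and 0 higher, with 7 lower and 2 higher at an unadjusted p under 0.05 (background 3.32% lower among calls and 11.9% at the unadjusted p). They were TXNRD1, thioredoxin reductase, at 27.4, 6.92 and 34.5 rescaled TPM in PEO4 against 107, 76.3 and 166 in PEO1 (adjusted p = 0.0476), and MGST1, a microsomal glutathione transferase, at 80.9, 64.9 and 72.8 rescaled TPM in PEO4 against 191, 206 and 243 in PEO1 (adjusted p = 0.0156). Of 3 tested metallothioneins MT1E, a metal-binding protein, was lower at 56.4, 25.8 and 73.4 rescaled TPM in PEO4 against 339, 198 and 462 in PEO1 (-2.70 ± 0.47, adjusted p = 0.0173). Each of these calls was lost without PEO4 replicate 1, PEO1 replicate 1 or PEO1 replicate 3, and those of TXNRD1 and MGST1 also without PEO1 replicate 2 (adjusted p up to 0.183, 0.0739 and 0.0869). MGST1 was also lost after correction for GC content (adjusted p = 0.0631).

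By limma 0 of 29 BCL2 family and apoptosis genes passed, with 0 higher and 8 lower at an unadjusted p under 0.05, against 12.4% and 11.9% of all tested genes, and a median difference of -0.45. In the model of 42 libraries 1 was higher and 10 were lower, where 2783 and 2334 of 18013 genes were. With all 54 libraries in the model 0 were higher and 0 lower.

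Of 30 tested G2/M and mitosis genes 5 were lower and 0 higher, with 9 lower and 1 higher at an unadjusted p under 0.05 and a median of -0.68. FOXM1, the mitotic transcription factor, differed by -1.41 ± 0.27 (adjusted p = 0.0236), with 128, 119 and 186 rescaled TPM in PEO4 against 382, 382 and 369 in PEO1, and MKI67, the Ki-67 antigen, by -1.08 ± 0.27 (adjusted p = 0.0488), with 224, 215 and 163 rescaled TPM in PEO4 against 493, 405 and 375 in PEO1. CDC25B, a phosphatase that starts mitosis, differed by -1.73 ± 0.30 (adjusted p = 0.0168), with 25.8, 25.3 and 20.9 rescaled TPM in PEO4 against 81.8, 90.6 and 72.6 in PEO1. TOP2A, topoisomerase II alpha, differed by -1.19 ± 0.29 (adjusted p = 0.0486). All were expressed in every library of both lines. The count was 0 without PEO4 replicate 1 or any PEO1 replicate and 2 without PEO4 replicate 2 or 3, with the calls of MKI67 and TOP2A lost in each of the 6 fits (adjusted p up to 0.192 and 0.178), and 3 after correction for GC content, TOP2A not among them (adjusted p = 0.136). Of 29 G1/S and DNA replication genes RRM1, a ribonucleotide reductase subunit, was the 1 lower, at 7.22, 6.70 and 10.9 rescaled TPM in PEO4 against 35.7, 30.97 and 59.8 in PEO1 (adjusted p = 0.0250), and it was lost without PEO4 replicate 1 or any PEO1 replicate (adjusted p up to 0.117).

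Cytosolic ribosomal protein genes, whose share of the RNA was given above, had 7 of 59 tested members lower and 1 higher, with a median difference of -0.77 and 27 lower and 1 higher at an unadjusted p under 0.05. RPS6, the subunit phosphorylated downstream of mTOR, differed by -2.21 ± 0.28 (adjusted p = 0.00493), with 546, 349.9 and 428 rescaled TPM in PEO4 against 2038, 1790.4 and 2214 in PEO1. RPL37, RPL34 and RPL27, of the large subunit, differed by -2.59 ± 0.56, -1.95 ± 0.39 and -1.82 ± 0.32 (adjusted p = 0.0344, 0.0256 and 0.0176), and the calls of RPL37 and RPL34 were lost without PEO4 replicate 1 or any PEO1 replicate and that of RPL27 without PEO1 replicate 1 or 3 (adjusted p up to 0.139, 0.110 and 0.0946). RPL34 was also lost after correction for GC content (adjusted p = 0.0807). The higher member, RPS20, chosen after its values were seen, stood at 814, 641 and 825 rescaled TPM in PEO4 against 342, 303 and 361 in PEO1 (adjusted p = 0.0318). These genes have many processed pseudogenes that can share their reads. The number lower was 1 without PEO1 replicate 1 or 3, 2 without PEO4 replicate 1 or PEO1 replicate 2, and 14 without PEO4 replicate 3. It was 20 with the replicate number as a block, 10 after correction for GC content and 0 with all 54 libraries in the model. At 8 h, 1 of the 59 was called higher and 1 lower. Of 40 nuclear genes for oxidative phosphorylation 1 was higher, CYC1, and 1 lower, SDHA, a subunit of complex II, at 74.8, 70.1 and 77.6 rescaled TPM in PEO4 against 155, 159 and 166 in PEO1 (adjusted p = 0.0389), whose call was lost without any library but PEO4 replicate 3.

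Of 22 tested complement and immune ligand genes 2 were higher and 3 lower. C3, the central complement protein, differed by -4.14 ± 0.55 (adjusted p = 0.00625), with 2.22, 10.3 and 8.602 rescaled TPM in PEO4 against 116, 177 and 90.7 in PEO1, and CLU, the chaperone clusterin, by 2.60 ± 0.39 (adjusted p = 0.00916), with 122, 114 and 148 rescaled TPM in PEO4 against 33.1, 18.2 and 13.5 in PEO1. The calls of CFI, at 9.49, 10.05 and 2.33 in PEO4 and at 0, 0 and 0 in PEO1, and C1S, at 0, 0 and 0 in PEO4 and at 5.49, 5.05 and 2.85 in PEO1, held only without PEO4 replicate 3 (adjusted p up to 0.130 and 0.106 otherwise). Without PEO4 replicate 1 or any PEO1 replicate 1 member was higher and 1 lower. CFI inactivates C3b and C1S is a protease of the classical pathway.

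Of 23 tested inflammatory cytokine and NF-kB genes 1 was higher and 1 lower. CCL5, a chemokine that interferon also induces, stood at 38.7, 36.8 and 4.28 rescaled TPM in PEO4 against 0, 1.35 and 1.15 in PEO1 (adjusted p = 0.0499), and TNF, tumour necrosis factor, at 0, 0 and 0 rescaled TPM in PEO4 against 3.05, 6.77 and 10.7 in PEO1 (adjusted p = 0.0269). The CCL5 call was lost after correction for GC content (adjusted p = 0.0568) and without any library but PEO4 replicate 3, and that of TNF held only without PEO4 replicate 3 or PEO1 replicate 1 (adjusted p up to 0.184 and 0.106). TRIB3, a pseudokinase induced by the integrated stress response, was the 1 lower of 19 stress genes at 7.12, 2.21 and 10.2 rescaled TPM in PEO4 against 73.5, 69.2 and 62.3 in PEO1 (-3.38 ± 0.52, adjusted p = 0.0102), and was lost without any PEO1 replicate (adjusted p up to 0.0667). CRYAB, a small heat shock protein, was the 1 lower of 15 at 10.01, 12.3 and 11.5 rescaled TPM in PEO4 against 80.3, 94.5 and 68.1 in PEO1 (-2.73 ± 0.33, adjusted p = 0.00448). By limma 0 of 18 hypoxia-induced genes passed, with 2 higher and 1 lower at an unadjusted p under 0.05.

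Among 14 tested long noncoding RNAs 2 were higher and 2 lower. UCA1, a cytoplasmic RNA, stood at 556, 734 and 338 rescaled TPM in PEO4 against 108, 134 and 71.5 in PEO1 (2.34 ± 0.38, adjusted p = 0.0127), and LINC01133 at 0, 0 and 0 rescaled TPM in PEO4 against 27.9, 16.2 and 17.5 in PEO1 (adjusted p = 0.00406). SNHG5, a host of small nucleolar RNAs, stood at 49.2, 38.6 and 36.6 rescaled TPM in PEO4 against 96.7, 213 and 347 in PEO1 (-2.20 ± 0.47, adjusted p = 0.0318). The UCA1 call was lost without PEO4 replicate 1, PEO1 replicate 1 or PEO1 replicate 3, and that of SNHG5 held only without PEO1 replicate 1 (adjusted p up to 0.0683 and 0.107). Without PEO4 replicate 1, PEO1 replicate 1 or PEO1 replicate 3 no member was higher. CADM1, a cell adhesion molecule grouped with the synucleins, differed by -3.64 ± 0.50 (adjusted p = 0.00700), with 2.03, 1.23 and 3.48 rescaled TPM in PEO4 against 42.1, 25.98 and 49.7 in PEO1, and was lost without PEO1 replicate 1 or 3 (adjusted p up to 0.0521). Of 26 mucin and glycan genes 2 were higher and 0 lower (7 and 5 at an unadjusted p under 0.05), MUC16 and MUC6, a gastric-type mucin at 13.02, 16.99 and 26.6 rescaled TPM in PEO4 against 3.02, 3.64 and 1.78 in PEO1 (adjusted p = 0.0343), and the MUC6 call was lost in each of the 6 fits (adjusted p up to 0.131) and after correction for GC content (adjusted p = 0.129). After that correction 1 member was higher and 3 lower, and 3 were lower with the replicate number as a block and 2 with all 54 libraries in the model. Of 30 cancer-testis antigens 29 were below the level tested and the remaining 1 did not pass.

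Markers of other cell types were summed over each list, as a check on the cells that the cultures held. Of 10 fibroblast markers 4 (DCN, LUM, PDGFRA and POSTN) were at 0 in all libraries, and the summed level was 44.3 to 71.6 rescaled TPM in PEO4 and 61.1 to 103.9 in PEO1. Of 10 leukocyte markers 4 (CD3E, MS4A1, FCGR3A and TYROBP) were at 0 in all, with sums of 69.5 to 166 in PEO4 and 67.3 to 119 in PEO1. The 8 endothelial markers summed to 60.9 to 130.3 in PEO4 and 42.0 to 68.4 in PEO1, and CDH5, VE-cadherin, was lower at 1.38, 1.28 and 0 rescaled TPM in PEO4 against 17.8, 29.8 and 7.32 in PEO1 (adjusted p = 0.0296), a call lost without PEO4 replicate 1 or any PEO1 replicate (adjusted p up to 0.120). The 8 mesothelial markers, of which ITLN1 was at 0 in all, summed to 246 to 1059 in PEO4 and 101.1 to 189.6 in PEO1, most of it MSLN, which serous tumours also express, and DES, desmin, was higher at 7.80, 12.1 and 11.2 rescaled TPM in PEO4 against 0, 0 and 0 in PEO1 (adjusted p = 0.00765). Of 5 tested mesothelial markers 1 was higher and 0 lower, as given with the Müllerian genes. By limma 0 of 2 tested fibroblast and 0 of 4 tested leukocyte markers passed, with 0 and 1 of them, lower, at an unadjusted p under 0.05. The part of such cells in the results was not tested.

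The same lines were then compared after 8 h of carboplatin. The 8 h libraries took no part in the main fit of the untreated libraries. They were part of the models of 42 and of 54 libraries, whose calls are also given above. The untreated libraries in turn share in the rescaling and the spread of the 8 h fit, so its calls are not fully separate evidence. With 2 libraries per line, in a model of the 42 libraries listing at least 12000 genes, 1782 of 18013 genes were called, or 9.89%, 840 higher in PEO4 (4.66%) and 942 lower (5.23%). Without rescaling 236 were higher and 190 lower, and with all 54 libraries 296 and 211, so neither direction prevailed under every setting. Of the 693 genes higher without drug, 631 (91.1%) had a positive difference at 8 h, 336 (48.5%) were again called higher and 0 were called lower. Of the 499 lower genes, 472 (94.6%) had a negative difference, 313 (62.7%) were again called lower and 1 was called higher. Of all genes tested without drug 48.9% had a positive difference at 8 h. The median difference of these groups was 1.42 and -1.61 at 8 h, against 2.76 and -2.56 without drug. Part of this shrinkage is fixed by the choice of genes on the untreated values. In 38 of the higher and 14 of the lower genes the 8 h difference was 0, with the gene listed at 0 on both sides.

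Several of the leading genes were again called. SNCG differed by 8.69 ± 0.79 at 8 h (adjusted p = 3.41e-09), CRABP2 by 8.44 ± 0.64 (adjusted p = 5.32e-11), IGFBP3 by -6.47 ± 0.41 (adjusted p = 1.34e-12) and FN1 by -5.63 ± 0.45 (adjusted p = 1.59e-10). The interferon list had 34 of 44 members higher at 8 h and 0 lower, and the Müllerian list 12 of 16 higher and 0 lower. MX1 differed by 4.44 ± 0.49 (adjusted p = 1.23e-07). CPT1A differed by 0.91 ± 0.40 and did not pass (adjusted p = 0.176). PAX8 did not pass at 8 h (0.54 ± 0.30, adjusted p = 0.323).

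The change of the line difference with drug was tested directly, as the difference at 8 h minus that without drug, and 429 genes were called (2.38%), 135 with a positive and 294 with a negative value. Of these, 166 were among the 693 higher genes and 62 among the 499 lower ones, and since the change subtracts the untreated values on which those genes were called, part of its direction in them is fixed by that choice. FAM101A differed by 0.80 ± 0.46 at 8 h and did not pass there (adjusted p = 0.336), a change of -5.86 ± 0.59 (adjusted p = 2.27e-07). IGF1R differed by 1.69 ± 0.33 at 8 h (adjusted p = 0.000584), a change of -3.04 ± 0.42 (adjusted p = 3.73e-05). The number called was 938 without PEO4 replicate 3 and 701 without PEO4 replicate 1.

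**Figure D5:**
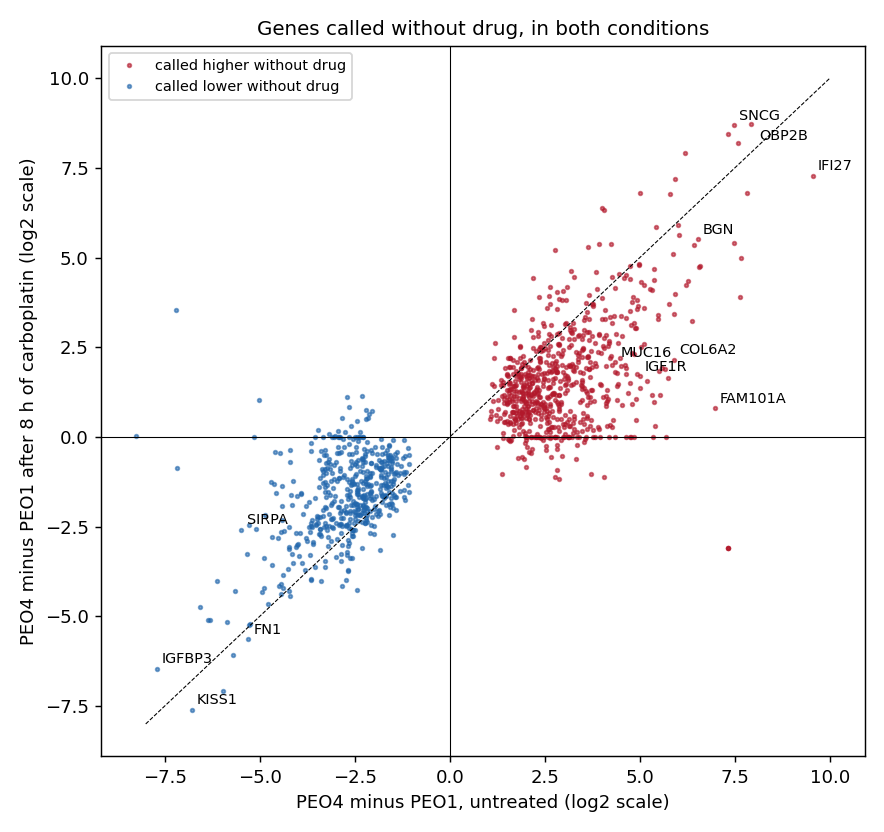
PEO4 minus PEO1 difference after 8 h of carboplatin (vertical axis) against that without drug (horizontal axis), both on the log2(rescaled TPM + 1) scale, for the 1192 genes called without drug. Of the genes higher without drug 91.1% lie above 0 at 8 h and of the lower ones 94.6% below, the dashed line marks equal differences, and points at exactly 0 are genes listed at 0 at 8 h in both lines.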

How the data were processed

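Gene-level TPM values of 54 libraries, made by the authors with RSEM as the deposited table names it, were used as deposited, and 25435 genes are listed. The submitters' processing notes name bcl2fastq 2.18 and the build hg19. The aligner and the annotation were not given in the sources used here. TPM keep no read depth, so no count test and no counting interval was possible.

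The 6 untreated PEO4 and PEO1 libraries were rescaled by median ratios over 11060 genes above 0 in all 6, genes with at least 1 TPM in 3 or more libraries were kept (15013), and log2(rescaled TPM + 1) was tested with limma 3.58.1 in R 4.3.3 (trended variance, Benjamini-Hochberg adjustment, threshold 0.05). The 8 h difference, and its change from the untreated one, were fitted over 42 libraries listing at least 12000 genes. The fit was run on simulated data with independent errors and without the GC trend seen here, which cannot check the calls for such effects.

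Named genes were the 12 most positive and 12 most negative called genes (mean of at least 10 rescaled TPM in the higher line, no overlap, no symbol marked -AS, LOC, small RNA or readthrough, a rule that keeps the antisense gene EMX2OS), up to 4 called members of each of 49 lists with the largest differences, and 31 fixed genes. Lists and members were chosen with earlier results of these data known. Of 1289 list entries 1048 were tested, 237 were below the level tested and 4 were not found. Other settings were a pseudocount of 0.1, no filter, no rescaling, the replicate number as a block, other sets of libraries in the model, and each library left out. A correction for the GC content and length of each gene's longest GENCODE transcript was chosen after seeing the data. Promoters and gene order came from RefSeq (GRCh38.p14), and no coordinate of the hg19 files was used. Some items are not reported here.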

Additional observations from a re-analysis of the deposited data

Results flagged for a closer look

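For 19 of the named genes the difference between PEO4 and PEO1 after 8 h of carboplatin departed from that without drug, by a limma test of the change itself (adjusted p under 0.05, over 18013 genes). Each change below is the 8 h difference minus the untreated one, on the log2(rescaled TPM + 1) scale, with 2 libraries of each line at 8 h and 3 without drug. In genes that PEO1 listed at 0 in all its untreated libraries the change rests on the pseudocount and is no bound.

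The 16 negative changes were all of genes higher in untreated PEO4. Since the genes were named for their untreated differences and the change subtracts these same values, this direction is largely fixed by the choice of genes. Among growth factor, matrix and neural genes, IGF2 changed by -3.45 ± 0.69 (adjusted p = 0.00345), its receptor IGF1R by -3.04 ± 0.42 (adjusted p = 3.73e-05), the neighbouring noncoding RNA H19 by -2.79 ± 0.47 (adjusted p = 0.000462) and COL6A2 by -3.35 ± 0.58 (adjusted p = 0.000766). FAM101A changed by -5.86 ± 0.59 (adjusted p = 2.27e-07), TMEM132E by -2.74 ± 0.34 (adjusted p = 4.55e-06), NES by -2.70 ± 0.50 (adjusted p = 0.00157) and KLHL14 by -1.46 ± 0.39 (adjusted p = 0.0393). H19 was listed at 0 in both lines at 8 h, and so was MUC6, which changed by -2.34 ± 0.35 (adjusted p = 9.70e-05).

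Among hormone, lineage and antigen genes, GREB1 changed by -2.55 ± 0.50 (adjusted p = 0.00297), MUC16 by -2.37 ± 0.55 (adjusted p = 0.0151), LGR6 by -2.28 ± 0.40 (adjusted p = 0.000776) and RDH10 by -1.96 ± 0.46 (adjusted p = 0.0155). EMX2 changed by -1.67 ± 0.47 (adjusted p = 0.0493), its antisense neighbour EMX2OS by -1.46 ± 0.39 (adjusted p = 0.0393) and DES by -1.52 ± 0.38 (adjusted p = 0.0225).

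Of the 19, the 3 with positive changes were OBP2B, CDH5 and SIRPA. CDH5 changed by 2.179 ± 0.58 (adjusted p = 0.0376) and SIRPA by 2.57 ± 0.60 (adjusted p = 0.0155), both lower in untreated PEO4. The direction of these 2 is largely fixed by the choice of genes in the same way. OBP2B changed by 1.23 ± 0.33 (adjusted p = 0.0398), and its change was negative without rescaling. Single libraries that stand apart were checked only by leaving out 1 untreated library at a time, which gave 353 to 938 changes over all genes. No 8 h library was left out. The part of library composition in these changes was not tested.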

How the results depend on the processing

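The 1192 calls between untreated PEO4 and PEO1 stayed within 1.5 times under a pseudocount of 0.1 (960), no filter (968), no rescaling (1188), the correction for GC content and length (1200), the replicate block (1597) and all 54 libraries in the model (868). With the 42 libraries in the model they were 5117 (28.4%), 2783 higher and 2334 lower. Leaving out a library gave 305 to 1285 calls, 208 to 718 higher and 97 to 567 lower. Of the calls 58.1% were higher, against 50.3% after correction for GC content and 71.7% without PEO1 replicate 2, 68.2% without PEO1 replicate 1 and 67.1% without PEO1 replicate 3. Without rescaling the median difference of all genes was -0.15.

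At 8 h the 1782 calls (840 higher, 942 lower) were 426 without rescaling (236 higher, 190 lower) and 507 with all 54 libraries (296 higher, 211 lower). Leaving out an untreated library gave 1786 to 2054, 843 to 966 higher and 943 to 1088 lower. The 429 changes between 8 h and untreated (135 positive, 294 negative) were 242 with a pseudocount of 0.1 (135 negative) and 50 with all 54 libraries (11 positive, 39 negative), and 165 were negative after correction for GC content. Leaving out a library gave 353 to 938, 123 to 353 positive and 230 to 585 negative. The change of OBP2B was -0.42 without rescaling. The cause of these shifts was not tested.

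Of 122 named genes that were called, 108 kept the call with a pseudocount of 0.1, 112 without the filter, 119 without rescaling, 119 with the replicate block, 76 with all 54 libraries, 122 with 42 libraries and 108 of 121 after correction for GC content. With a library left out 65 to 114 kept it, and 59 did in every such fit. None of the 122 differences turned direction in these fits. Same-numbered PEO4 and PEO1 libraries deviated together with correlations of -0.01, 0.28 and 0.29 across genes. PEO4 replicate 3 correlated with PEO1 replicate 2 at -0.27, and PEO4 replicate 2 with PEO1 replicate 3 at -0.31. Only the libraries numbered 2 and 3 thus correlated best with their own number. The main fit did not take the numbers as pairs, and the block moved the count to 1597. Whether the numbers stand for a shared day was not tested. By limma on 3 libraries a line, the CPT1A difference of 0.89 ± 0.33 did not pass (adjusted p = 0.147). The reason was not tested.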
